A study of Mus musculus with 13 samples.

Results

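A set of 10 genes of the extracellular matrix protease system were followed across all 13 RNA-seq libraries of the series: the 4 tissue inhibitors of metalloproteinases Timp1, Timp2, Timp3 and Timp4, the 5 matrix metalloproteinases Mmp2, Mmp3, Mmp9, Mmp14 and Mmp15, and the related protease Adamts1. They are 10 of the 36158 genes listed in the files, and all 10 passed the filter on low counts in both tissues. They were chosen because of their values in Hmox2-/- and Hmox2+/+ mice, Timp1 being higher in Hmox2-/- mice in both tissues, so their differences between genotypes are given as a description with no p-value. RNA came from aortic endothelial cells (ECs) of 3 Hmox2+/+ and 3 Hmox2-/- mice and from whole hearts of 4 Hmox2+/+ and 3 Hmox2-/- mice. Hmox2-/- mice carry a deletion of the gene for heme oxygenase 2, the constitutive heme-degrading enzyme, in every tissue, and the Hmox2+/+ controls were their wildtype littermates. All mice breathed room air and were young, and the sources used here give no sex or exact age for the sequenced animals. The study asked how transcription in the vessel lining and the heart changes in this mouse, which it uses as a model of sleep apnea.

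Matrix metalloproteinases are zinc proteases that cut collagens, elastin, basement membrane proteins and many cell surface proteins. Most are made as inactive proenzymes and are switched on by removal of a propeptide, and TIMP proteins block the active enzymes by binding the catalytic site. In the vessel wall and the heart the balance between proteases and inhibitors sets the turnover of the matrix, and TIMP1 is a widely used marker of matrix remodelling.

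The samples limit what the levels can say. EC RNA was obtained by flushing TRI Reagent through the aortic lumen, not by sorting cells, and heart RNA came from powdered whole hearts with another extraction kit, so that tissue and kit cannot be told apart. Total estimated counts were between 26067146 and 31619776 in 12 libraries and 7268626 in the first Hmox2+/+ heart. Hmox2, the deleted gene, had 63.9 to 76.2 CPM (counts scaled to the library size) in Hmox2+/+ ECs against 12.6 to 14.8 in Hmox2-/- ECs, and 37.3 to 42.5 CPM in Hmox2+/+ hearts against 7.54 to 8.91 in Hmox2-/- hearts. The share of counts from mitochondrially encoded genes was 37.6% to 44.3% in wildtype hearts but 22.5% to 27.2% where Hmox2 was deleted. CPM values are scaled by TMM normalization within a tissue and serve to compare libraries of that tissue, while TPM, which is corrected for transcript length, is used wherever levels of different genes are compared.

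The 10 genes lie on 9 chromosomes. In the GRCm39 assembly Timp1 lies at chrX:20736316-20740976 within the synapsin gene Syn1, Timp3 at chr10:86136236-86185371 within Syn3 and Timp4 at chr6:115187773-115229336 within Syn2, each on the strand opposite to its host. Of the 31-base words in Timp3 transcripts, 21.2% also occurred in Syn3 transcripts, and of those in Mmp3 transcripts 11.4% also occurred in Mmp10, its neighbouring paralog. The other members shared at most 2.22% of their words with all other genes. Syn3 was at 2.57 ± 0.69 CPM (SD, n = 3) in Hmox2+/+ ECs, against 855 ± 170 CPM for Timp3, but the quantification did not use the strand, and reads of the shared part cannot be assigned to one of the pair with certainty.

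RefSeq promoter windows, from 250 bases before to 50 bases after a start on the GRCm38.p6 build, were found for 8 of the 10 members, and not for Mmp2 and Mmp9. They were searched on both strands for the AP-1 motif TGAGTCA, its variant TGAGTAA, the TATA motif TATAAA and the GC box GGGCGG, and no 2 matches in the members' windows shared bases. TGAGTCA occurred in 5.2% of 32851 windows and in 1 member, Mmp3. TGAGTAA occurred in 2.68% of windows and in 1 member, Timp1, where it starts 27 bases into the transcribed part. TATAAA occurred in 13.6% of windows and in 2 members, Mmp3 and Adamts1, and GGGCGG occurred in 35.7% of windows and in 6 members. The 150 bases before the start are shown for Timp1, the gene higher in Hmox2-/- mice in both tissues, for Mmp3 and Mmp15, which had the largest tissue differences in the count fit, and for Adamts1, with matches to any of these motifs in capitals. A match describes letters only, and no binding was measured. They are chrX:20870016-20870165 (plus strand), chr9:7445672-7445821 (plus), chr8:95352146-95352295 (plus) and chr16:85803114-85803263 (minus).
Timp1: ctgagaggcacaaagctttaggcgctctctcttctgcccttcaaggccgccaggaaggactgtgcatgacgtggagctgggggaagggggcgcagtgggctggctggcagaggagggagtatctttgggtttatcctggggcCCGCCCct
Mmp3: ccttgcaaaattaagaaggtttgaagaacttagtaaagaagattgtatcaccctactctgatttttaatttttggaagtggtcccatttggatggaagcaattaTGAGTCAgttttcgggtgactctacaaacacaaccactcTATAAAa
Mmp15: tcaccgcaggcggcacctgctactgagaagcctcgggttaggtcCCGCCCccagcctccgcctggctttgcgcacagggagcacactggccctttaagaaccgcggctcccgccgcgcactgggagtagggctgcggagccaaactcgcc
Adamts1: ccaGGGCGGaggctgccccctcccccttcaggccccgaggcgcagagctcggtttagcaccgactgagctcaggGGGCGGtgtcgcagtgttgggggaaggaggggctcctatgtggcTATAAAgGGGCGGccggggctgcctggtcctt

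Timp1 encodes a secreted inhibitor that binds the proenzyme of MMP9 and is induced in injured and inflamed tissue. In ECs it was at 6.53, 10.1 and 17.8 CPM in the 3 Hmox2+/+ libraries and at 31.9, 18.7 and 23.1 CPM in the 3 Hmox2-/- libraries. Each Hmox2-/- library was above every Hmox2+/+ library, by a narrow margin between 18.7 and 17.8 CPM, and the ranges overlapped on the TPM scale (8.38 to 30.8 against 25.1 to 51.6 TPM). The log2 fold change was 1.10 ± 0.36 (SE), or 2.14-fold, and was between 0.82 and 1.56 when any 1 library was left out. In heart tissue Timp1 was at 0.00, 0.28, 0.88 and 0.46 CPM in Hmox2+/+ mice and at 2.14, 1.24 and 1.38 CPM in Hmox2-/- mice. These rest on 0, 8, 23 and 13 estimated counts against 73, 41 and 46, and the library without any count is the shallow one, in which 3 counts would be 0.446 CPM. The groups did not overlap on either scale. The log2 fold change was 1.74 ± 0.48 (SE), or 3.34-fold, and between 1.47 and 2.32 when any 1 library was left out. The difference in hearts exceeded that in ECs by 0.67 ± 0.63 (SE) on the log2 scale, about the size of its own error. In bulk samples such as these, fewer cells of a type and less RNA per cell cannot be told apart.

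Timp2 encodes the inhibitor that also acts with MMP14 at the cell surface to activate MMP2. In ECs its level was 563, 544 and 857 CPM in Hmox2+/+ mice and 909, 847 and 798 CPM in Hmox2-/- mice, so that the third Hmox2+/+ library lay among the Hmox2-/- libraries. The log2 fold change was 0.38 ± 0.22 (SE), and 0.06 on the log2 TPM scale, where a shorter transcript weighs more. In heart tissue the 4 Hmox2+/+ libraries were at 72.0, 77.7, 69.9 and 64.8 CPM and the 3 Hmox2-/- libraries at 70.8, 73.7 and 71.8 CPM, with a log2 fold change of 0.02 ± 0.09 (SE). The Hmox2-/- hearts lay inside the range of the Hmox2+/+ hearts in CPM, whereas in TPM they were above it, at 29.5 ± 1.5 against 19.7 ± 5.3 (SD). On the log2 TPM scale the median of all genes was itself 0.31 higher in Hmox2-/- hearts, against -0.01 in the TMM-normalized fit.

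Timp3 encodes the inhibitor that binds the matrix and also blocks ADAM17 and the ADAMTS proteases. Its level in ECs was 828, 700 and 1038 CPM in Hmox2+/+ mice and 866, 903 and 1044 CPM in Hmox2-/- mice, 2 largely overlapping ranges (log2 fold change 0.13 ± 0.20, SE). In hearts it was at 125, 151, 195 and 183 CPM in Hmox2+/+ mice and 133, 123 and 158 CPM in Hmox2-/- mice, with a log2 fold change of -0.25 ± 0.15 (SE) and overlapping ranges.

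Timp4 encodes the inhibitor known for its expression in heart muscle. In ECs it was at 23.6, 29.9 and 18.6 CPM in Hmox2+/+ mice and 45.8, 22.9 and 27.9 CPM in Hmox2-/- mice, and only the first Hmox2-/- library stood above the Hmox2+/+ range (log2 fold change 0.42 ± 0.28, SE). In heart tissue the Hmox2+/+ libraries were at 13.1, 22.0, 28.4 and 24.3 CPM, the shallow library being the lowest, and the Hmox2-/- libraries were at 35.8, 33.7 and 32.7 CPM. All 3 Hmox2-/- hearts were above all 4 Hmox2+/+ hearts. The log2 fold change was 0.60 ± 0.18 (SE), or 1.52-fold, and 0.45 to 0.74 when any 1 library was left out.

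Mmp2 encodes gelatinase A, which degrades denatured collagen and basement membrane collagen and is made largely by mesenchymal cells. In ECs it was at 102, 108 and 161 CPM in Hmox2+/+ mice and at 234, 249 and 263 CPM in Hmox2-/- mice, so that the groups were clearly apart. The log2 fold change was 1.01 ± 0.19 (SE), or 2.01-fold, and 0.89 to 1.24 when any 1 library was left out. In hearts it was at 26.0, 32.7, 30.0 and 27.4 CPM in Hmox2+/+ mice and 30.3, 28.6 and 27.8 CPM in Hmox2-/- mice. The heart groups overlapped entirely (log2 fold change -0.01 ± 0.10, SE), and the heart difference was lower than the EC difference by 0.98 ± 0.21 (SE) on the log2 scale.

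Mmp9 encodes gelatinase B, an enzyme stored in neutrophils and made by macrophages. Its EC levels were 8.12, 12.1 and 8.25 CPM in Hmox2+/+ mice and 8.46, 7.89 and 9.30 CPM in Hmox2-/- mice, which overlapped (log2 fold change -0.15 ± 0.20, SE). In heart tissue it was at 2.68, 0.97, 2.21 and 1.81 CPM in Hmox2+/+ mice and at 0.56, 0.45 and 0.84 CPM in Hmox2-/- mice. Every Hmox2-/- heart was below every Hmox2+/+ heart, with a log2 fold change of -1.56 ± 0.38 (SE), while in TPM the ranges overlapped (0.17 to 0.89 against 0.33 to 0.82 TPM) and the log2 fold change was -0.61. Summed markers of neutrophils were 1.31 to 1.41 CPM in Hmox2-/- hearts and 1.59 to 1.98 CPM in Hmox2+/+ hearts, with 3 of the 8 markers, Ly6g, Retnlg and Camp, at 3 counts or fewer in every heart library. The macrophage list summed to 80.1 to 119 CPM in wildtype hearts against 113 to 179 CPM without Hmox2. Their part in the Mmp9 levels was not tested.

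Mmp3 encodes stromelysin 1, which cuts proteoglycans and laminin and activates other proenzymes. In ECs it was at 38.7, 16.3 and 48.5 CPM in Hmox2+/+ mice and at 266, 112 and 98.1 CPM in Hmox2-/- mice. The groups did not overlap, and the Hmox2-/- libraries were themselves far apart, the first being more than both others together. The log2 fold change was 2.20 ± 0.50 (SE), or 4.60-fold, the largest EC difference among the members, and it was 1.61 to 2.53 when any 1 library was left out. In hearts it was low, at 9 to 51 estimated counts, with 1.34, 1.45, 0.99 and 0.92 CPM in Hmox2+/+ mice and 1.41, 1.21 and 1.53 CPM in Hmox2-/- mice. These ranges overlapped (log2 fold change 0.26 ± 0.27, SE), and the heart difference was lower than the EC difference by 1.90 ± 0.65 (SE).

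Mmp14 encodes the membrane-type enzyme that activates MMP2. It was at 28.6, 27.3 and 34.4 CPM in Hmox2+/+ ECs and 36.3, 28.8 and 31.5 CPM in Hmox2-/- ECs (log2 fold change 0.10 ± 0.14, SE). In hearts it was at 11.3, 9.93, 10.7 and 10.6 CPM in Hmox2+/+ mice and 12, 9.42 and 7.78 CPM in Hmox2-/- mice (log2 fold change -0.12 ± 0.15, SE). The groups overlapped in both tissues.

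Mmp15 encodes a second membrane-type enzyme. In ECs it was at 14.3, 12.8 and 6.51 CPM in Hmox2+/+ mice and at 5.56, 5.22 and 4.09 CPM in Hmox2-/- mice. The Hmox2-/- libraries were all lower, the third Hmox2+/+ library being close to them, and the log2 fold change was -1.18 ± 0.31 (SE), and -1.45 to -0.96 when any 1 library was left out. In heart tissue, where the gene was abundant, it was at 136, 140, 111 and 131 CPM in Hmox2+/+ mice and 106, 116 and 111 CPM in Hmox2-/- mice, with overlap and a log2 fold change of -0.22 ± 0.10 (SE). The EC libraries also held markers of heart muscle: cardiomyocyte genes, led by Myl2, summed to 113 to 454 CPM in Hmox2+/+ ECs and 5.49 to 8.34 CPM in Hmox2-/- ECs. Of these 7 genes 6 were lower in Hmox2-/- ECs (edgeR's quasi-likelihood test, adjusted p at most 0.05), beside 8.06% of all genes. Their part in the EC levels of Mmp15 was not tested.

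Adamts1 encodes a secreted protease of versican and other proteoglycans. It was at 140, 101 and 153 CPM in Hmox2+/+ ECs and 102, 138 and 165 CPM in Hmox2-/- ECs, with no difference in range (log2 fold change 0.04 ± 0.22, SE). In hearts it was at 56.2, 43.8, 52.3 and 49.2 CPM in Hmox2+/+ mice and at 27.6, 29.5 and 28.5 CPM in Hmox2-/- mice. The heart groups were clearly apart on both scales, with a log2 fold change of -0.82 ± 0.10 (SE), -0.87 to -0.77 when any 1 library was left out and -0.46 on the log2 TPM scale. Vcan, which encodes versican, was at 10.4 ± 0.8 CPM (SD, n = 4) in Hmox2+/+ hearts and 9.38 ± 1.60 CPM (n = 3) in Hmox2-/- hearts and did not pass the test.

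**Figure D1:**
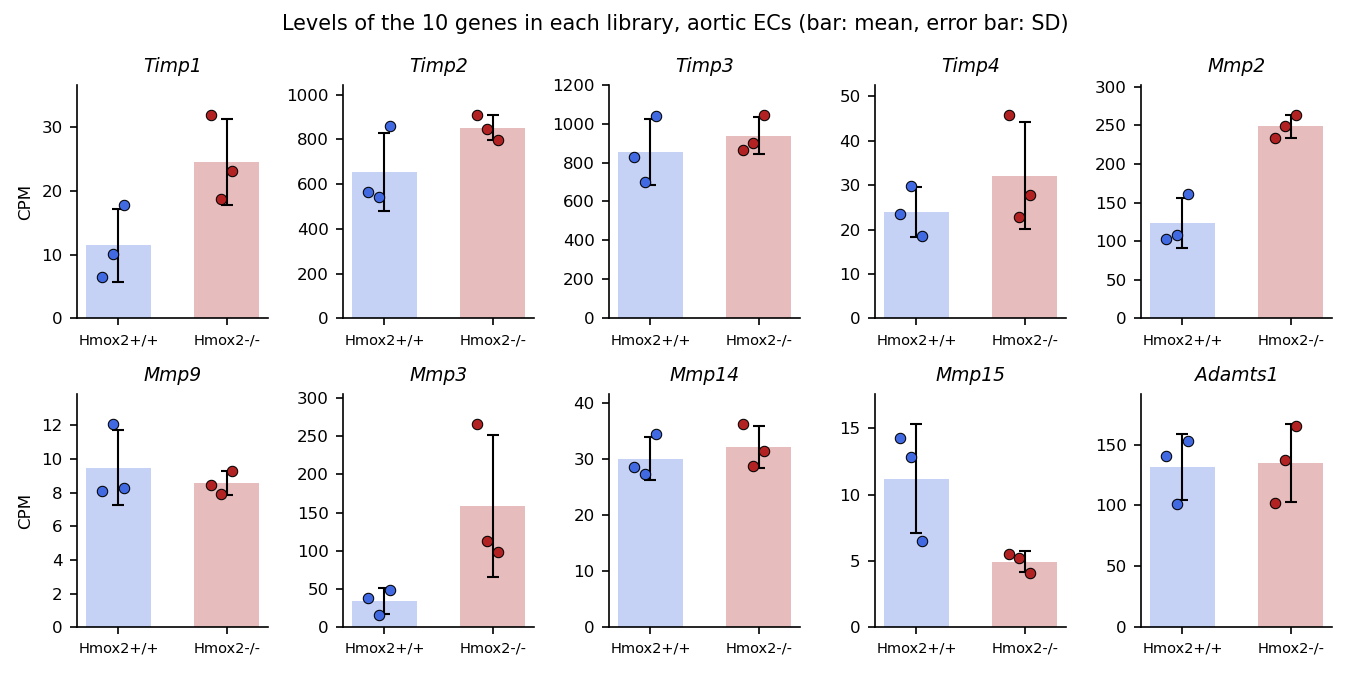
CPM (y axis, linear, from 0) of the 10 genes in aortic ECs, 1 panel a gene, with a point for each of the 3 Hmox2+/+ and 3 Hmox2-/- libraries, the mean as a bar and the SD as an error bar. Timp1, Mmp2 and Mmp3 were higher in every Hmox2-/- library and Mmp15 was lower, and the other 6 overlapped.

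**Figure D2:**
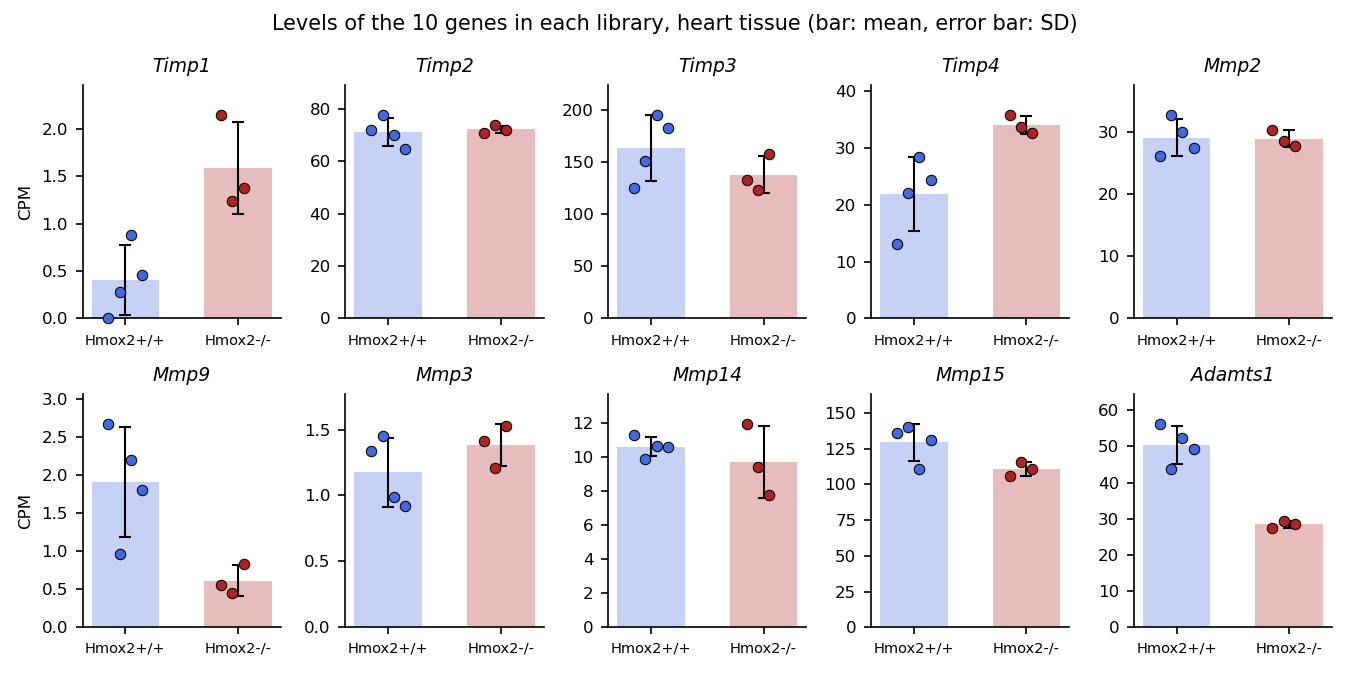
CPM (y axis, linear, from 0) of the 10 genes in heart tissue, drawn in the same way for 4 Hmox2+/+ and 3 Hmox2-/- libraries. Timp1 and Timp4 were higher in every Hmox2-/- heart, Mmp9 and Adamts1 were lower, and the other 6 overlapped.

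In ECs 4 of the 10 genes had groups that did not overlap, beside 40.7% of the 15303 genes tested, and in hearts also 4 of 10, beside 40.4% of 13818 genes. In edgeR's quasi-likelihood fit across all genes, 3 members passed an adjusted p of at most 0.05 in ECs (Mmp2, Mmp3 and Mmp15), beside 18.1% of all genes, and 4 in hearts (Timp1, Timp4, Mmp9 and Adamts1), beside 33.4%. Timp1 in ECs was not among them. With at least a 2-fold difference, all 3 remained in ECs, beside 9.28% of all genes, and Timp1 and Mmp9 in hearts, beside 6.71%. The choice of the members used these contrasts, so these counts are no independent test of the members and nothing is read from them. The median log2 fold change of the members was 0.26 in ECs, against -0.02 for all genes, and -0.07 in hearts, against -0.01 for all genes. Mmp2 and Mmp3 were higher in Hmox2-/- ECs without a counterpart in hearts, while Mmp9 and Adamts1 were lower in Hmox2-/- hearts without a counterpart in ECs. The heart difference was below the EC difference by 1.36 ± 0.44 (SE, log2) for Mmp9 and by 0.81 ± 0.24 for Adamts1, and above it by 0.99 ± 0.30 for Mmp15. These differences between tissues are also part of what the members were chosen on and were not tested.

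**Figure D3:**
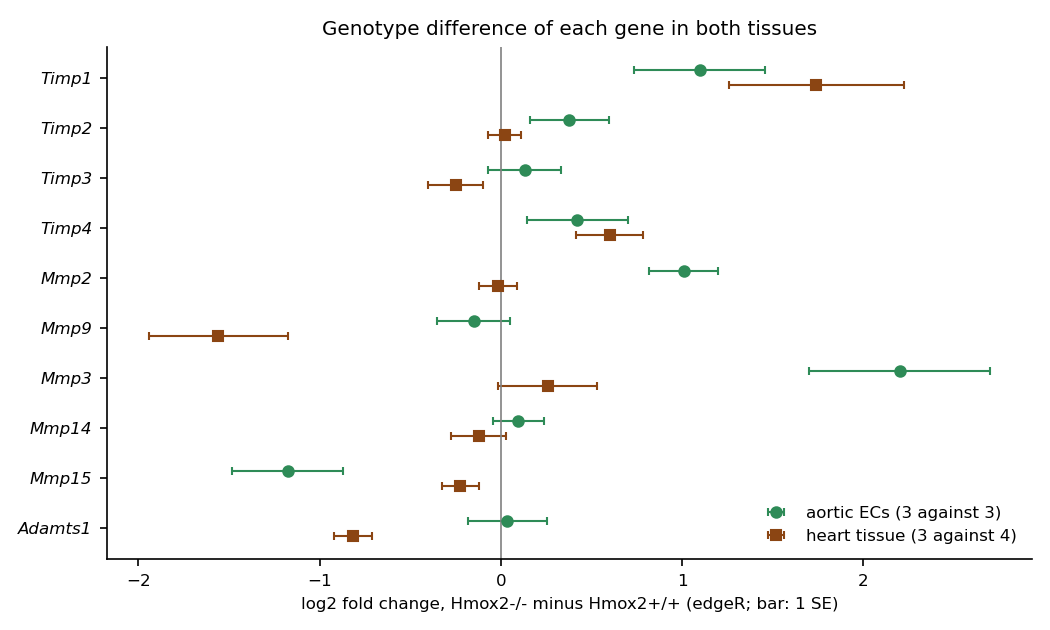
log2 fold change of Hmox2-/- over Hmox2+/+ mice (x axis) for each gene in aortic ECs (circles) and heart tissue (squares), with 1 SE as bars. Timp1 lies to the right of 0 in both tissues, at 1.10 and 1.74, and Mmp2, Mmp3, Mmp9, Mmp15 and Adamts1 lie apart in the 2 tissues.

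The EC samples of the 2 genotypes also differed in markers of the cells they could hold. Endothelial markers, led by Pecam1, summed to 2856 to 4184 CPM in Hmox2+/+ ECs and 5078 to 6199 CPM in Hmox2-/- ECs, with 3 of 8 higher and 1 lower. Fibroblast markers, led by Dcn, summed to 3121 to 5587 CPM and 6843 to 7525 CPM, so that the EC samples were not free of stromal RNA in either genotype; 3 of the 8 rose and 1 fell. Macrophage markers summed to 230 to 294 CPM and 358 to 494 CPM, with 4 of 7 higher, and smooth muscle markers to 3382 to 6629 CPM and 1090 to 3699 CPM, with 3 of 7 lower. Mesothelial markers summed to 30.9 to 152 CPM and 6.07 to 6.45 CPM, with 4 of 5 lower. Platelet markers, led by Pf4, summed to 17.5 to 31.2 CPM and 33.4 to 58.4 CPM, with 1 of the 4 tested higher. Adipocyte markers, led by Cfd, overlapped at 3445 to 5126 CPM and 4103 to 5377 CPM, with 2 of 6 lower. In Hmox2+/+ ECs their sums were thus in the range of the endothelial ones or above it. Neutrophil markers, led by S100a9, also overlapped, at 20.3 to 123 CPM and 12.4 to 52.1 CPM. None of the markers on these lists was at 3 counts or fewer in all EC libraries. Markers were called higher or lower by edgeR at an adjusted p of at most 0.05. Of all genes, 10% were called higher and 8.06% lower in Hmox2-/- ECs, and 17.2% and 16.2% in Hmox2-/- hearts. In hearts, mesothelial markers were higher in Hmox2-/- mice, at 42.5 to 71.8 CPM against 25.6 to 29.3 CPM, with 4 of 5 higher, platelet markers were at 7.70 to 10.8 CPM against 3.27 to 4.53 CPM, endothelial markers were at 599 to 616 CPM against 457 to 552 CPM, with 3 of 8 higher and 1 lower, and fibroblast markers overlapped, at 611 to 779 CPM against 566 to 670 CPM. The part of these cells in the levels of Timp1, Mmp2 and Mmp3 was not tested.

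The levels of the members differed between the tissues in Hmox2+/+ mice, a contrast that played no part in their choice. By edgeR's quasi-likelihood test in a joint fit of all 13 libraries, 7 of the 10 passed an adjusted p of at most 0.05 with at least a 2-fold difference, beside 39.3% of 15911 genes. Under each of the 20 alternatives of the fit 7 passed as well. Some of these only left out a Hmox2-/- library, which is not part of this contrast, and none was a fit of log2 TPM. Of the 7, 6 were lower in heart tissue, beside 22.0% of all genes. The sizes depend on the scale, and the folds of the mean TPM are given beside those of the fit. Mmp3 was 17.8-fold lower (log2 -4.16 ± 0.44, SE; edgeR adjusted p = 1.24e-06) and 33.6-fold lower in TPM, at 0.67 ± 0.20 TPM (SD, n = 4) in hearts and 22.5 ± 12 TPM (n = 3) in ECs. Timp1 was 14.2-fold lower (edgeR adjusted p = 4.32e-06) and 36.7-fold lower in TPM, at 0.51 ± 0.43 TPM in hearts and 18.6 ± 11.3 TPM in ECs. Timp2 was 5.48-fold lower (adjusted p = 4.40e-09), Timp3 3.11-fold (adjusted p = 1.30e-06), Mmp9 3.10-fold (adjusted p = 0.000172) and Mmp2 2.52-fold lower (adjusted p = 1.37e-06), all by edgeR. In mean TPM the same 4 genes were 15.4-fold, 6.11-fold, 5.90-fold and 5.23-fold lower in hearts. The folds compare whole hearts with EC samples that also held fibroblast, smooth muscle and adipocyte markers, not with endothelial cells alone. The part of such cells in these folds was not tested.

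Mmp15 was the exception. It was 19.5-fold higher in hearts (log2 4.28 ± 0.24, SE; edgeR adjusted p = 1.17e-09), at 24.1 ± 4.3 TPM (SD, n = 4) against 2.33 ± 0.71 TPM in ECs (n = 3), which is 10.3-fold, beside 17.2% of all genes called higher in hearts. Without the 2-fold minimum all 10 members passed, beside 65.9% of all genes, and Mmp14, Adamts1 and Timp4 differed by less than 2-fold in the fit: Mmp14 was 1.69-fold and Adamts1 1.56-fold lower in hearts, and Timp4 was 1.57-fold higher. In TPM, Mmp14 was 3.08-fold and Adamts1 2.93-fold lower in hearts, with every EC library above every heart library. For Timp4 the TPM values gave the opposite order, 6.59 ± 2.25 TPM in hearts and 9.77 ± 3.76 TPM in ECs, with overlapping ranges.

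Within Hmox2+/+ ECs the order of the genes by mean TPM was Timp2, Timp3, Mmp2, Adamts1, Mmp3, Timp1, Mmp14, Timp4, Mmp9 and Mmp15. Only Timp3 and Mmp2, and Timp4 and Mmp9, were neighbours whose libraries did not overlap, so the middle of this order is loose. Timp2 and Timp3 stood far above the rest, at 304 ± 135 and 202 ± 60 TPM (SD, n = 3). In Hmox2-/- ECs Mmp3, at 104 ± 67 TPM, took the third place from the fifth, with a range that overlapped that of Mmp2 (96.3 ± 10.9 TPM). In Hmox2+/+ hearts the order was Timp3, Mmp15, Timp2, Adamts1, Mmp2, Timp4, Mmp14, Mmp3, Mmp9 and Timp1. Timp3 was at 33.0 ± 4.8 TPM (SD, n = 4), overlapping Mmp15, and Timp1 was the last, overlapping Mmp9. In Hmox2-/- hearts Timp1 was at 2.63 ± 0.68 TPM (n = 3), above Mmp3 with no overlap.

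The 4 TIMP genes together had 5.46, 6.07 and 5.96 times the summed TPM of the 5 MMP genes in the 3 Hmox2+/+ EC libraries and 2.06, 2.92 and 3.10 times in the 3 Hmox2-/- EC libraries, 2 ranges that did not overlap. The summed TPM of the TIMP genes was 373 to 765 in Hmox2+/+ ECs and 478 to 618 in Hmox2-/- ECs, while that of the MMP genes was 68.4 to 128 and 164 to 300. The lower ratio thus came with higher MMP sums, chiefly of Mmp2 and Mmp3, and with overlapping TIMP sums. In hearts the ratio was 1.19, 1.51, 1.87 and 1.61 in Hmox2+/+ mice and 1.86, 1.63 and 1.88 in Hmox2-/- mice, and the groups overlapped. A ratio of transcript levels does not measure the proteins or their activity. The members were chosen on the genotype contrasts, so the separation in ECs is a description and no test. The MMP sum also leaves out other MMP genes present in ECs, such as Mmp23 at 57.4 ± 16.6 CPM (SD, n = 3) in Hmox2+/+ ECs.

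**Figure D4:**
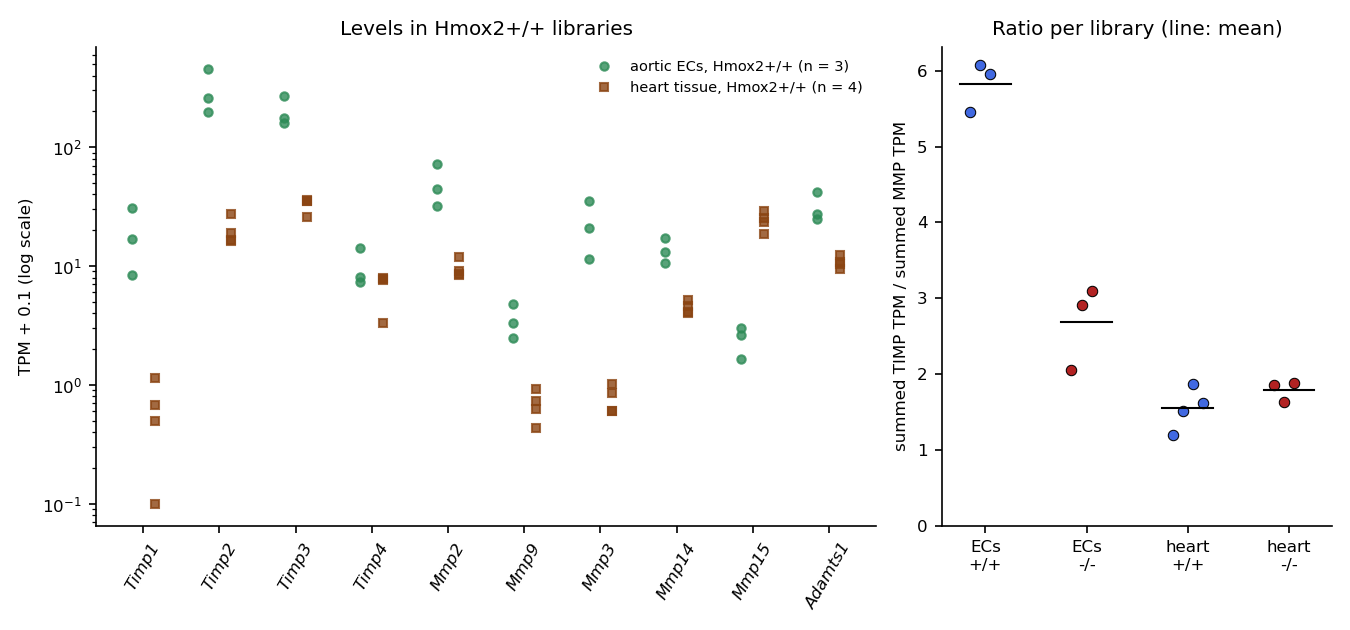
Left, TPM + 0.1 on a log scale for the 10 genes in the Hmox2+/+ libraries of aortic ECs (circles) and heart tissue (squares), where Mmp15 is the only gene with every heart library above every EC library. Right, summed TPM of the 4 TIMP genes over that of the 5 MMP genes in each library, with the mean as a line. The ratio was 5.46 to 6.07 in Hmox2+/+ ECs and 2.06 to 3.10 in Hmox2-/- ECs, and the genotypes overlapped in hearts. The genes were chosen on the genotype contrasts, so this is a description.

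The share of each gene's counts by transcript was similar across groups for most members, with a single transcript holding nearly all counts of Timp3, Mmp2, Mmp9, Mmp14 and Mmp15. For Timp2 the main transcript, Timp2-201, held 89.3% to 92.5% of the estimated counts in Hmox2+/+ ECs and 96.5% to 96.9% in Hmox2-/- ECs, and the 718-base transcript Timp2-202 the rest. For Timp1 the transcript Timp1-202 held 54.8% to 61.6% in Hmox2+/+ ECs and 66.8% to 73.6% in Hmox2-/- ECs. Neither pair of ranges overlapped, and these shares are Kallisto's estimates between transcripts that share most of their sequence. In hearts Timp1 had too few counts for a share.

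Of 113 other genes of the matrix protease system, written in 10 lists, 96 were tested in ECs and 87 in hearts. By edgeR's quasi-likelihood test at an adjusted p of at most 0.05, 14 rose and 5 fell in Hmox2-/- ECs, beside 10% and 8.06% of all genes, and 9 rose and 26 fell in Hmox2-/- hearts, beside 17.2% and 16.2%. The 14 include Adamts18, Adamts19 and Adam28, which passed the filter on low counts only through the Hmox2-/- EC libraries. Such genes could hardly be called lower, so the EC split is partly set by the filter. In ECs the split was 17 higher and 12 lower with DESeq2, 15 and 12 in the fit of all 13 libraries, and 5 and 6 without the first Hmox2-/- library. With any 1 EC library left out, 1 to 23 list genes passed, the lowest count being without the third Hmox2-/- library. In hearts it was 16 higher and 5 lower on the log2 TPM scale, on which the median of all genes was 0.31, so the direction of the heart counts depends on the scaling. The median log2 fold change of the lists together was 0.11 in ECs and -0.15 in hearts. The tissue by genotype interaction passed for 21 of 99 list genes, beside 28.9% of all genes.

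**Figure D5:**
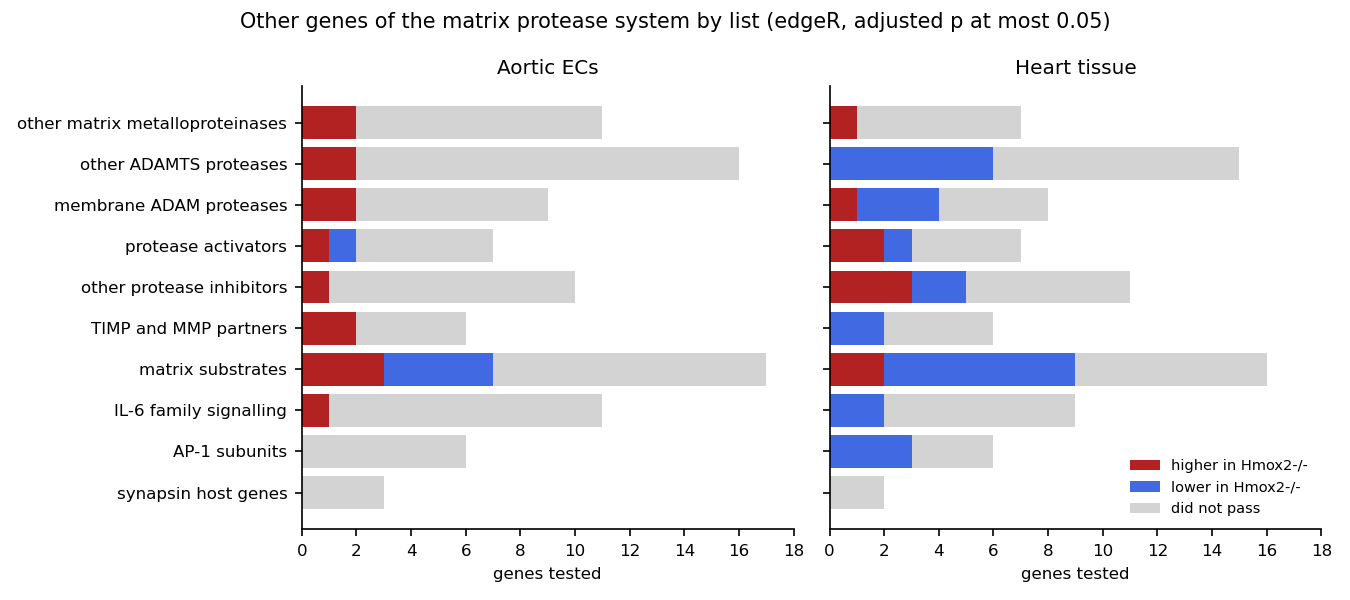
Number of genes tested (x axis) in each of the 10 lists, in aortic ECs (left) and heart tissue (right), with those higher in Hmox2-/- mice, those lower and those that did not pass (edgeR, adjusted p at most 0.05). In the ADAMTS list 2 of 16 genes rose in ECs, both passing the filter on low counts only through the Hmox2-/- libraries, and 6 of 15 fell in hearts. Among the matrix substrates, 3 of 17 were higher and 4 lower in ECs, and 2 of 16 were higher and 7 lower in hearts. Of all genes, 10% were higher and 8.06% lower in ECs, and 17.2% and 16.2% in hearts.

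Among the other MMP genes 2 of 11 rose in ECs, Mmp27 and Mmp28, and 1 of 7 in hearts, Mmp17. Mmp17, a membrane-type enzyme, rose by 0.62 ± 0.22 (SE, log2; edgeR adjusted p = 0.049) in hearts, from 1.42 ± 0.09 to 2.17 ± 0.36 CPM, a call kept in 4 of 16 alternatives. Of the ADAMTS proteases 2 of 16 rose in ECs, Adamts18 and Adamts19, and 6 of 15 fell in hearts, the list to which Adamts1 belongs by structure. Adamts19 rose in ECs by 2.48 ± 0.46 (edgeR adjusted p = 0.0139), from 0.17 to 0.96 CPM, and fell in hearts, with a log2 fold change of -1.46 ± 0.35 (edgeR adjusted p = 0.00948), from 1.55 to 0.55 CPM. Its Hmox2+/+ EC libraries held 3.0 to 7.0 estimated counts, so in ECs it passed the filter on low counts only through the Hmox2-/- libraries. Adamts18 was at 0.16 ± 0.09 CPM in Hmox2+/+ ECs and 0.77 ± 0.14 CPM in Hmox2-/- ECs. These libraries held 3.0 to 8.5 and 18.1 to 23.8 estimated counts, so it too passed the filter only through the Hmox2-/- libraries. Its call was kept in 8 of 15 alternatives.

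Of the membrane ADAM proteases 2 of 9 rose in ECs, while 1 of 8 rose and 3 fell in hearts. Adam10, a sheddase of Notch receptors and cadherins, rose in ECs by 0.64 ± 0.16 (edgeR adjusted p = 0.033) and fell in hearts, with a log2 fold change of -0.41 ± 0.11 (edgeR adjusted p = 0.0147). Its EC call was kept in 8 of 15 alternatives, being lost without any of 5 of the 6 libraries, and its heart value was -0.05 on the log2 TPM scale. Adam17, the sheddase of TNF and a target of TIMP3, fell in hearts (log2 -0.64 ± 0.10, SE; edgeR adjusted p = 0.00105) and was at 45.1 ± 2.3 and 49.9 ± 2.0 CPM in Hmox2+/+ and Hmox2-/- ECs, where it did not pass. Adam28 passed as higher in Hmox2-/- ECs, at 0.57 CPM against 0.03 CPM. Its Hmox2+/+ EC libraries held 0 to 3 estimated counts and its Hmox2-/- libraries 12.2 to 18.2. In ECs it thus passed the filter on low counts only through the Hmox2-/- libraries.

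Of the protease activators, Plat, which encodes tissue plasminogen activator, rose in both tissues: by 0.83 ± 0.16 in ECs (edgeR adjusted p = 0.0149) and by 0.87 ± 0.15 in hearts (edgeR adjusted p = 0.00225). Pcsk6, a proprotein convertase, fell in ECs (log2 -1.38 ± 0.12, SE; edgeR adjusted p = 0.00152). Plau, which encodes urokinase, was at 12 ± 2.5 and 10.8 ± 2.7 CPM in Hmox2+/+ and Hmox2-/- ECs and passed in neither tissue.

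Of the other inhibitors 1 of 10 rose in ECs, Tfpi2, and 3 of 11 rose and 2 fell in hearts. A2m, a broad protease inhibitor, rose in hearts by 1.30 ± 0.41 (edgeR adjusted p = 0.031), a call kept in 10 of 16 alternatives, and was too low to test in ECs. Reck, which encodes a membrane-anchored MMP inhibitor, was at 62.3 ± 17.7 and 79.5 ± 8.0 CPM in Hmox2+/+ and Hmox2-/- ECs and passed in neither tissue. Of the receptors and partners of TIMP and MMP proteins, 2 of 6 rose in ECs, Cd44 and the TIMP1 receptor component Cd63, and 2 of 6 fell in hearts, Lrp1 and Itgav.

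Of the matrix substrates 3 of 17 rose and 4 fell in ECs, and 2 of 16 rose and 7 fell in hearts. Those that rose were Dcn, Lum and Spp1 in ECs and Fn1 and Bgn in hearts. Dcn and Lum are also on the list of fibroblast markers. The basement membrane genes Lamc1 and Nid2 passed as lower in both tissues, but in ECs the call of Lamc1 was kept in 3 of 15 alternatives and that of Nid2 in 6 of 15. Lamc1, a laminin chain, had log2 fold changes of -0.43 ± 0.12 in ECs (edgeR adjusted p = 0.0424) and -0.37 ± 0.10 in hearts (edgeR adjusted p = 0.0127), and 0.02 in hearts on the log2 TPM scale. Nid2, which encodes nidogen 2, had -0.71 ± 0.17 (edgeR adjusted p = 0.0318) and -0.46 ± 0.12 (edgeR adjusted p = 0.0152). Lama5, another laminin chain, fell in hearts from 139 ± 31 to 50.4 ± 10.9 CPM (edgeR adjusted p = 0.000487), and Tnc, which encodes tenascin C, fell in ECs from 9.47 ± 2.40 to 3.97 ± 1.07 CPM (edgeR adjusted p = 0.0255).

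A pair of further lists held known inducers of Timp1 and of several MMP genes. Of the IL-6 family list 1 of 11 rose in ECs, the oncostatin M receptor Osmr, and 2 of 9 fell in hearts, Clcf1 and Lifr. Il6 itself was at 0.04 ± 0.07 and 0.30 ± 0.11 CPM in Hmox2+/+ and Hmox2-/- ECs and was too low to test. Of the AP-1 subunits 3 of 6 fell in hearts, Fos, Fosl2 and Junb, and in ECs 0 of 6 passed edgeR's test, 2 having an unadjusted p under 0.05, while DESeq2 called 2, Fosl2 and Jund. Fos fell from 5.66 ± 3.87 to 1.11 ± 0.18 CPM in hearts (log2 -2.21 ± 0.44, SE; edgeR adjusted p = 0.00403). Of the synapsin genes that host Timp1, Timp3 and Timp4, 0 of 3 passed in ECs and 0 of 2 in hearts by edgeR or DESeq2, and 0 had an unadjusted p under 0.05. Syn1 was at 0.66 ± 0.25 and 0.58 ± 0.28 CPM and Syn2 at 5.64 ± 0.90 and 4.05 ± 1.01 CPM in Hmox2+/+ and Hmox2-/- ECs.

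The 5 genes most like Timp1 were named by Pearson's r of log2 CPM over the 13 libraries after the mean of each tissue was taken out, among 13352 genes. They were Rab32 (r = 0.971), which encodes a small GTPase of lysosome-related organelles, Clec4a1 (r = 0.948), which encodes a C-type lectin receptor of myeloid cells, Ostm1 (r = 0.947), a lysosomal chloride channel subunit, Prim1 (r = 0.944), the catalytic subunit of DNA primase, and Galnt10 (r = 0.943), a glycosyltransferase. The r values are descriptions of 13 points that share 2 genotypes. Rab32 was at 8.77 ± 1.31 and 12.7 ± 1.8 CPM in Hmox2+/+ and Hmox2-/- ECs and at 0.59 ± 0.36 and 1.45 ± 0.12 CPM in hearts. Clec4a1 was at 3.77 ± 0.61 and 6.73 ± 0.14 CPM in ECs and at 1.12 ± 0.47 and 1.90 ± 0.20 CPM in hearts.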

How the data were processed

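Paired reads of each library were pseudoaligned by the authors with Kallisto 0.44.0 at default settings against GENCODE mouse transcripts, and the authors deposited estimated counts and TPM per transcript, 1 library at a time and unnormalized between libraries. The methods name release M32 (GRCm39), whereas the submitters' processing notes list mm10 and a human build; transcripts were matched here by stable identifier to release M39 (97.2% of 118489). Estimated counts and TPM were summed per gene, and the counts were rounded. Genes passing filterByExpr at a minimum count of 10 were fitted after TMM normalization with edgeR 4.0.16 (R 4.3.3) within each tissue. Tissue and interaction contrasts used 1 fit of all 13 libraries. P-values were adjusted by Benjamini-Hochberg over all genes tested. The 10 members, the lists, the named genes and the alternatives (DESeq2 1.42.0 and limma 3.58.1 on log2(TPM + 0.1) among them) were chosen with earlier results of these data known.

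The genes named outside the members were those called in both tissues, up to 3 with the largest called change per tissue and direction, and 11 known partners, 1 of which is not reported here; members of a count of 5 or fewer that this leaves out were named after their values were seen. A gene's word share is the percent of its 31-base words found in another gene. In simulated data, where 200 genes differed 4-fold, edgeR called 164 in ECs, 184 in hearts, 167 for the tissue contrast and 130 for the interaction. It also called 8, 20, 9 and 6 unchanged genes, in the same order. The record calls the EC and heart samples matched, but no label ties an EC library to a heart library of the same mouse. All were thus treated as independent, and the joint fit of 13 libraries ignores any such pairing. The p-values measure the spread between these libraries. Same-numbered libraries deviated together only weakly (median r = 0.032, 3 of 18 pairs over 0.1), against a median r of -0.008 for other pairs.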

Additional observations from a re-analysis of the deposited data

Results flagged for a closer look

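Among the named genes of the lists, 7 had a genotype difference that was not the same in the 2 tissues, by the tissue by genotype interaction in edgeR's joint fit of 13 libraries. Over all lists 21 of 99 genes passed, beside 28.9% of all genes. Adamts19, Pcsk6, Tnc, Lama5 and Mmp17 had been named for a large change within a tissue. Such a choice favours a difference between tissues, so nothing is read from the count of 7. Values are heart minus EC differences on the log2 scale. Adamts19 was at -3.91 (adjusted p = 0.000568) and Adam10 at -1.01 (adjusted p = 0.00236), both higher in Hmox2-/- ECs and lower in Hmox2-/- hearts. Adam17 was at -0.74 (adjusted p = 0.0014) and Lama5 at -1.37 (adjusted p = 0.00362), both lower in Hmox2-/- hearts with smaller differences in ECs (edgeR). Pcsk6 was at 0.90 (adjusted p = 0.0248) and Tnc at 1.48 (adjusted p = 0.0271), both lower in Hmox2-/- ECs (edgeR). Mmp17 was at 2.16 (adjusted p = 0.0091), from 18.2 ± 9.4 to 6.39 ± 3.65 CPM in ECs, where its ranges overlapped and it did not pass (edgeR adjusted p = 0.064), and higher in Hmox2-/- hearts.

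In the 4 Hmox2+/+ hearts 1 library was set apart from the other 3 for 3 of 32 genes examined by Dixon's test, which chance passes in about 1 of 20 groups. These were Nid2 at 11.7 CPM in the first, shallow library, against 13.3 to 13.4 CPM in the others, and Adam17 at 34.9 CPM in the fourth, both the lowest. In TPM the shallow library was instead the highest for Nid2, at 5.95 TPM against 2.81 to 2.91 TPM. The third gene was Il6 at 0.035 CPM in the fourth library, the only Hmox2+/+ heart with a count for it. That is 1 estimated count, and any count in a single library passes this test, so nothing is read from it.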

How the results depend on the processing

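The tissue contrast called 7 members under all 20 alternatives, and the interaction called 16 to 28 list genes, against 21. For the tissue contrast some alternatives only left out a Hmox2-/- library, which it does not compare, and none was on log2 TPM. The other counts were less firm. Members past the call in ECs were 3 and ranged from 0 to 5 with 1 library left out (0 without the third Hmox2-/- library, where edgeR gave 4 an unadjusted p under 0.05, 1 without the first of either genotype, 5 without the third Hmox2+/+ library). In hearts they were 4, and 2 with length-scaled TPM counts, 2 with the replicate block and 2 to 4 with 1 library left out (2 without the second Hmox2+/+ or the first Hmox2-/- library). Timp1 in ECs passed in 4 of 15 alternatives and in hearts in 12 of 16. List genes called in ECs were 19, and 29 with DESeq2, 9 on log2 TPM, 11 with a 2-fold minimum and 1 to 23 with 1 library left out (1 without the third, 4 without the second and 11 without the first Hmox2-/- library, and 5 without the first Hmox2+/+ library). In hearts they were 35, and 22 with all 13 libraries in 1 fit, 21 on log2 TPM, 8 with a 2-fold minimum and 24 to 39 with 1 library left out. Fewer libraries or a stricter call were part of some of these settings; otherwise the cause was not tested. Lamc1 in hearts reversed on log2 TPM, to 0.0238. Upper-quartile scaling moved the median of all genes in the tissue contrast from -0.04 to -0.19. The replicate block, which pairs libraries by number only, gave 21 list genes in ECs, 12 higher and 9 lower, and 25 in hearts. Genes at a few counts, such as Timp1 and Mmp9 in hearts, are limited by depth.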
